A study of Homo sapiens with 18 samples.

Results

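Gene expression was compared between 3 arrays labelled si-PSTAR and 3 arrays labelled scramble, all from cells that received no doxorubicin (DOX), a DNA-damaging topoisomerase poison. The comparison was read across genes with at least 2 probes in the array's annotation, and a gene was said to change only if the 2 probes with the highest means over all 18 arrays both changed the same way. Of 19782 named genes, 6483 had at least 2 probes. Both probes of 3314 passed a filter on dim probes (mean log2 intensity of at least the median of all probes, 5.72) and were tested. Of the rest, 1558 kept 1 probe and 1611 kept none. The cells are labelled HepG2, an established line from a human liver carcinoma, transfected with small interfering RNAs (siRNAs) against PSTAR, with siRNAs against hnRNP K, or with a scramble sequence that targets no transcript. Each transfection was measured on 3 arrays with 400 nM DOX for 16 hours and on 3 without it. The arrays with DOX and those labelled si-hnRNP K serve here only as comparison data from other hybridisations. Nothing in the labels ties the 3 arrays of a group to separate cultures, and p-values therefore measure the spread between arrays, which may be technical.

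PSTAR is a long noncoding RNA, and hnRNP K is a nuclear protein that binds C-rich RNA and single-stranded DNA and takes part in transcription, splicing and mRNA stability. After DNA damage hnRNP K acts as a cofactor of the transcription factor p53, which drives genes of cell cycle arrest and cell death. Knockdown by siRNA cuts the targeted transcript, so the target's own level serves as a check of the label.

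The check of the target went against the label. HNRNPK, which encodes hnRNP K, had log2 intensities of 8.43, 8.42 and 8.46 on its brightest probe in the arrays labelled si-PSTAR, against 11.70, 11.82 and 11.64 in the scramble arrays. On the second probe it had 8.17, 8.40 and 8.12 in the arrays labelled si-PSTAR, against 11.89, 11.94 and 11.97 in the scramble arrays. The groups did not overlap on either probe, and HNRNPK fell by 3.28 ± 0.10 and 3.71 ± 0.10 on the log2 scale (SE of the model), or 9.73-fold and 13.1-fold (limma, adjusted p = 5.39e-20 and 1.41e-21). The brightest HNRNPK probe averaged 11.55 in the untreated group labelled si-hnRNP K. No probe is named for PSTAR, so its level could not be read. The labels are used as deposited, and each direction below is that of the arrays labelled si-PSTAR, whose HNRNPK was low.

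The arrays also fell into 2 sets that the siRNA labels do not explain. The 3 scramble arrays and the 3 arrays labelled si-hnRNP K, all without DOX, correlated with each other at r of at least 0.982 over 21981 probes. The other 12 arrays, among them the arrays labelled si-PSTAR without DOX, correlated with each other at r of at least 0.962. Between the sets r ran between 0.900 and 0.946. The siRNA label and the array set cannot be told apart in this comparison, since each group lies wholly in 1 set. Within a group no pair of arrays was identical, the smallest mean absolute difference between arrays of 1 group being 0.112 log2 units.

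The labelled cell type was set against its markers. Of 11 defining hepatocyte genes, 8 had a brightest probe whose mean lay below the median of all probes. Alpha-fetoprotein (AFP), a serum protein of hepatoblasts and HepG2 cells, averaged 5.62 in the arrays labelled si-PSTAR and 5.53 in the scramble arrays. Apolipoproteins APOA1 and APOB were as dim, at 5.53 and 5.56 in the arrays labelled si-PSTAR and at 5.46 and 5.57 in the scramble arrays. Albumin (ALB) averaged 6.94 in the arrays labelled si-PSTAR and 6.47 in the scramble arrays. The fibrinogen gene FGG averaged 6.56 in the arrays labelled si-PSTAR and 5.20 in the scramble arrays. Most defining markers of the labelled cell type were therefore among the dimmer probes of these arrays, in both groups. Of 7 fibroblast markers 5 lay above the median, among them decorin (DCN), a matrix proteoglycan, at 9.84 in the arrays labelled si-PSTAR and 8.05 in the scramble arrays. The collagen gene COL3A1 averaged 7.17 in the arrays labelled si-PSTAR and 9.23 in the scramble arrays. The log2 levels of the 7 fibroblast markers summed to between 47.4 and 48.1 in the arrays labelled si-PSTAR and to between 48.9 and 49.6 in the scramble arrays. The 11 hepatocyte markers summed to between 64.0 and 64.8 in the arrays labelled si-PSTAR and to between 61.8 and 62.2 in the scramble arrays. Leukocyte markers (3 of 5 above the median) summed to between 28.3 and 28.7 in the arrays labelled si-PSTAR and to between 28.8 and 29.2 in the scramble arrays. Endothelial markers (2 of 5 above the median) summed to between 27.3 and 27.6 in the arrays labelled si-PSTAR and to between 28.1 and 28.2 in the scramble arrays. The part of cell mixture in the results was not tested, and in bulk RNA fewer cells of a type and less RNA per cell cannot be told apart.

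In the limma test, 1212 of the 3314 tested genes changed on both probes at an adjusted p under 0.05, which is 36.6% of them. Single probes changed in 64.1% of 21981 cases. Both probes were higher for 823 genes (24.8%) and lower for 389 (11.7%). On another 548 genes (16.5%) both probes changed but in opposite directions, so that only 68.9% of the 1760 genes with both probes changed moved 1 way. On the arrays with DOX, where both groups lie in the same set of 12, the same contrast changed 829 genes (25%), and 92.3% of the 898 genes with both probes changed moved 1 way. The changes of the 2 probes correlated across the 3314 genes, which share arrays and are no replicates, at r = 0.286 without DOX and at 0.663 with DOX. On 1245 genes (37.6%) all arrays of 1 group lay above all arrays of the other on both probes, in 1 direction.

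**Figure D1:**
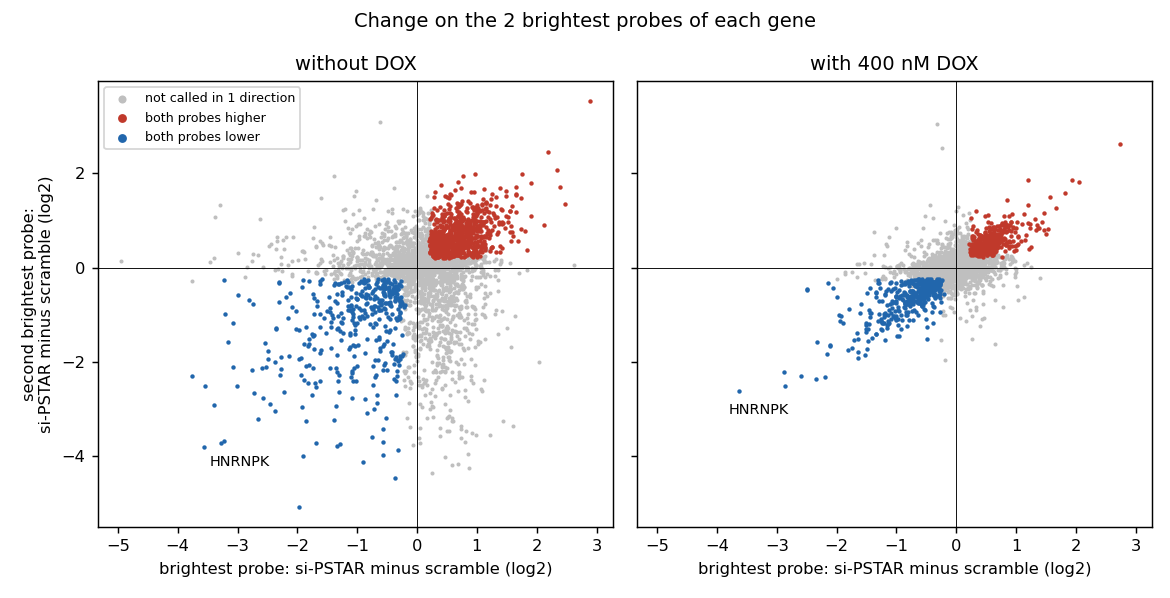
Log2 change (arrays labelled si-PSTAR minus scramble) on the brightest probe (x axis) and the second brightest probe (y axis) of 3314 genes, without DOX on the left and with 400 nM DOX on the right. Without DOX the points spread into the quadrants where the probes disagree (r = 0.286), while with DOX they lie closer to the diagonal (r = 0.663).

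The split into higher and lower genes depended on scaling. The deposited values were quantile normalized. After a further cyclic loess normalization, which removes differences that depend on intensity, 417 genes were higher (12.6%) and 646 lower (19.5%). The median change of the brightest probes was 0.21 before and -0.03 after it, a shift of 0.24, and that of the second probes shifted by 0.14. The count of genes at least 2-fold changed on both probes was 165 (4.98%), with 55 higher (1.66%) and 110 lower (3.32%). After cyclic loess 16 genes were at least 2-fold higher and 153 at least 2-fold lower, and all 55 and all 110 were still called in the same direction. Every gene that was lower in the deposited values was lower after it too, whereas 417 of the 823 higher genes were kept. No array decided these counts: leaving out 1 array at a time gave between 732 and 788 higher genes and between 363 and 385 lower ones.

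Probes beyond the second were used as a further reading. Of the 823 higher genes, 254 had another probe above the filter. It was higher in 116 of them, lower in 47 and not called in 91. Of the 389 lower genes, 74 had another probe, which was lower in 36, higher in 13 and not called in 25. The third brightest probe thus moved with the first 2 in 45.7% of the higher and 48.6% of the lower genes that had one.

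The largest rise was SOD2, the manganese superoxide dismutase of mitochondria. Its brightest probe read 12.40, 12.39 and 12.46 in the arrays labelled si-PSTAR, against 9.41, 9.63 and 9.56 in the scramble arrays. Its second probe read 10.69, 10.44 and 10.54 in the arrays labelled si-PSTAR, against 6.90, 7.14 and 7.03 in the scramble arrays. The groups were far apart on both probes, with changes of 2.89 ± 0.09 and 3.53 ± 0.11, or 7.39-fold and 11.6-fold (limma, adjusted p = 7.42e-20 and 8.5e-20). On the arrays with DOX, which share no array with these, SOD2 rose by 2.73 and 2.63.

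VAMP1, a vesicle protein of the SNARE family that mediates membrane fusion, read 10.21, 10.23 and 10.18 in the arrays labelled si-PSTAR, against 7.82, 7.97 and 7.80 in the scramble arrays. Its second probe read 8.21, 7.77 and 7.86 in the arrays labelled si-PSTAR, against 5.95, 5.79 and 5.89 in the scramble arrays. No array overlapped the other group, and VAMP1 rose by 2.34 ± 0.10 and 2.07 ± 0.11 (limma, adjusted p = 4.52e-17 and 2.19e-15), beside 2.05 and 1.82 with DOX. KMT5B, a methyltransferase that acts on histone H4, read 9.95, 10.02 and 10.08 in the arrays labelled si-PSTAR, against 7.501, 7.63 and 7.73 in the scramble arrays. On its second probe KMT5B read 9.74, 9.67 and 9.59 in the arrays labelled si-PSTAR, against 7.95, 7.94 and 7.94 in the scramble arrays. Its rises of 2.40 and 1.72 stood beside 1.82 and 1.59 with DOX. OPN3, an opsin expressed outside the eye, read 10.20, 10.56 and 10.63 in the arrays labelled si-PSTAR, against 8.28, 8.45 and 8.13 in the scramble arrays, and its probes rose by 2.18 and 2.45. With DOX the OPN3 probes rose by 1.57 and 1.49.

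TFPI, the inhibitor of the tissue factor pathway of blood clotting, showed what the choice of probe can do. Its brightest probe read 12.83, 12.93 and 12.91 in the arrays labelled si-PSTAR, against 10.95, 10.97 and 11.05 in the scramble arrays. The second probe read 12.59, 12.51 and 12.66 in the arrays labelled si-PSTAR, against 10.71, 10.91 and 10.76 in the scramble arrays. These probes rose by 1.90 and 1.80. The third probe of TFPI read 6.77, 7.34 and 7.45 in the arrays labelled si-PSTAR, against 8.61, 8.77 and 8.64 in the scramble arrays, a fall of 1.49 on the log2 scale. With DOX all 3 TFPI probes were higher, by 1.67, 1.27 and 0.99.

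The other 10 of the 15 largest rises took in genes of DNA repair, chromatin and metal binding. EXO1, an exonuclease of mismatch repair and DNA end resection, averaged 10.75 ± 0.17 in the arrays labelled si-PSTAR and 8.99 ± 0.14 in the scramble arrays on its brightest probe (SD, n = 3 each), with rises of 1.76 and 1.99. MT1E, a metallothionein that binds zinc and copper, read 13.05, 13.16 and 13.16 in the arrays labelled si-PSTAR, against 11.35, 11.55 and 11.53 in the scramble arrays, and rose by 1.65 and 1.55. Metallothionein transcripts are close in sequence, so the probes of MT1E may also read its paralogs. MSH5, a MutS homolog of meiotic recombination, rose on 3 probes by 1.65, 1.57 and 1.21. DNA repair genes did not rise as a list. Of 14 tested double-strand break, checkpoint and Fanconi genes, EXO1 among them, 2 rose and none fell. The called share of these 14 was 14.3%, against 36.6% of all tested genes. In 7 of the 14 the 2 probes were called in opposite directions, beside 16.5% of all tested genes. After cyclic loess 2 of the 14 rose and 1 fell. NCAPH2, a condensin II subunit, rose by 1.49 and 1.53, and PHF19, a Polycomb-associated reader of histone methylation, by 1.39 and 1.68. POFUT2, which adds fucose to secreted proteins, rose by 1.65 and 1.71, and GET4, which helps insert tail-anchored proteins into membranes, by 1.74 and 1.48. SNHG7, a host RNA of small nucleolar RNAs, rose on 3 probes by 1.48, 1.63 and 1.21. The third probes of PHF19, GET4 and POFUT2 were not called, at -0.17, -0.16 and 0.07, and that of PHF19 differed by -0.48 with DOX. CALML4, a calmodulin-like gene, rose on 3 probes by 2.48, 1.35 and 0.96, and TAGLN2, an actin-binding protein, by 1.32 and 1.51. With DOX all 15 had positive changes on their first 2 probes, the lowest being TAGLN2 at 0.25 and 0.53.

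**Figure D2:**
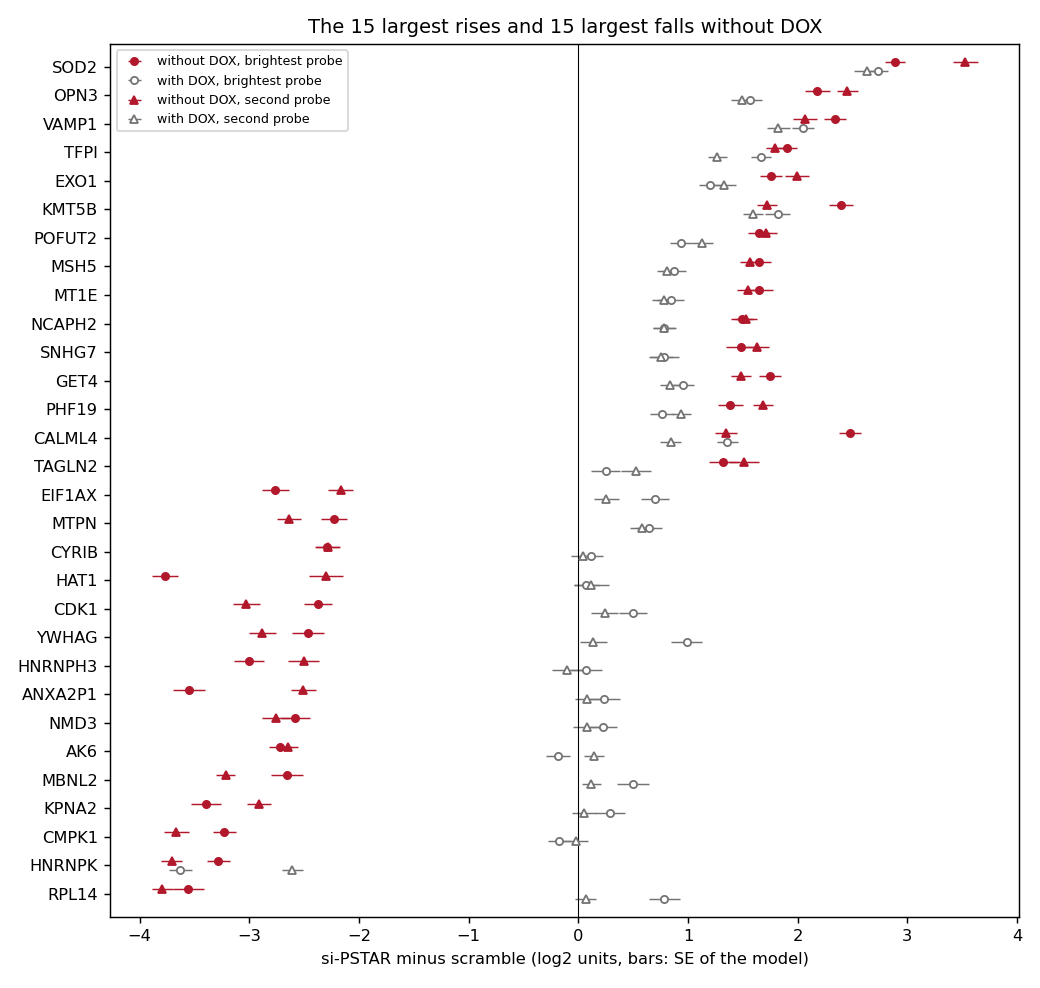
Log2 change (arrays labelled si-PSTAR minus scramble, with SE of the model) on the brightest probe (circles) and the second probe (triangles) of the 15 largest rises and the 15 largest falls without DOX (red, filled), with the change of the same probes with DOX (grey, open). The rises lie on the right in both conditions, while among the falls only HNRNPK, at -3.28 and -3.71 without DOX and -3.63 and -2.61 with DOX, is low in both.

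The largest falls behaved otherwise. RPL14, a protein of the large ribosomal subunit with near-identical processed copies in the genome, read 6.62, 6.58 and 6.60 in the arrays labelled si-PSTAR, against 10.11, 10.13 and 10.24 in the scramble arrays. Its second probe read 5.52, 5.54 and 5.68 in the arrays labelled si-PSTAR, against 9.44, 9.31 and 9.37 in the scramble arrays. The groups did not overlap, and RPL14 fell by 3.56 ± 0.14 and 3.80 ± 0.09 (limma, adjusted p = 8.69e-18 and 5.97e-22). With DOX the RPL14 probes averaged 7.31 and 5.85 in the arrays labelled si-PSTAR, against 6.52 and 5.79 in the scramble arrays. In the arrays labelled si-hnRNP K they averaged 6.95 and 5.86 with DOX, against 10.19 and 9.05 without DOX. RPL14 was thus high in the 6 arrays of the smaller set and low in the other 12. With DOX its second probe lay near the filter value of 5.72 in both groups, so a fall there could hardly be read.

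CDK1, the kinase that drives entry into mitosis, had the same distribution. It read 8.28, 8.76 and 9.03 in the arrays labelled si-PSTAR, against 11.12, 11.01 and 11.07 in the scramble arrays. Its second probe read 6.12, 6.24 and 6.01 in the arrays labelled si-PSTAR, against 9.21, 9.19 and 9.07 in the scramble arrays. CDK1 fell by 2.38 ± 0.13 and 3.03 ± 0.12, whereas with DOX its probes differed by 0.50 and 0.24. Between the arrays labelled si-hnRNP K with and without DOX the CDK1 probes changed by -1.36 and -2.62. HAT1, a histone acetyltransferase of newly made H4, read 6.15, 6.504 and 6.504 in the arrays labelled si-PSTAR, against 10.20, 10.27 and 9.998 in the scramble arrays. HAT1 fell by 3.77 and 2.30, beside changes of 0.07 and 0.12 with DOX and of -2.90 and -1.64 between the arrays labelled si-hnRNP K with and without DOX.

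Among the other falls, CMPK1, a kinase of pyrimidine nucleotides, fell by 3.23 and 3.67, and AK6, a nuclear adenylate kinase, by 2.72 and 2.65. KPNA2, an importin of nuclear transport, fell by 3.40 and 2.91. MBNL2 and HNRNPH3, both splicing regulators, fell by 2.65 and 3.21 and by 3.004 and 2.50. NMD3, the export adaptor of the large ribosomal subunit, fell by 2.58 and 2.76, and the translation initiation factor EIF1AX by 2.76 and 2.17. YWHAG, a phosphoserine-binding adaptor, fell by 2.46 and 2.88, MTPN, an inhibitor of actin capping, by 2.23 and 2.64, and CYRIB, a RAC1-binding regulator of actin, by 2.29 on both probes. ANXA2P1, a pseudogene of annexin A2 whose probes may read its parent gene, fell by 3.55 and 2.51. The third probe of MBNL2 rose by 0.62, and that of EIF1AX, at 0.24, was not called. With DOX, none of these 11 genes was lower by more than 0.19 on either of its first 2 probes, the value of the brightest AK6 probe.

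**Figure D3:**
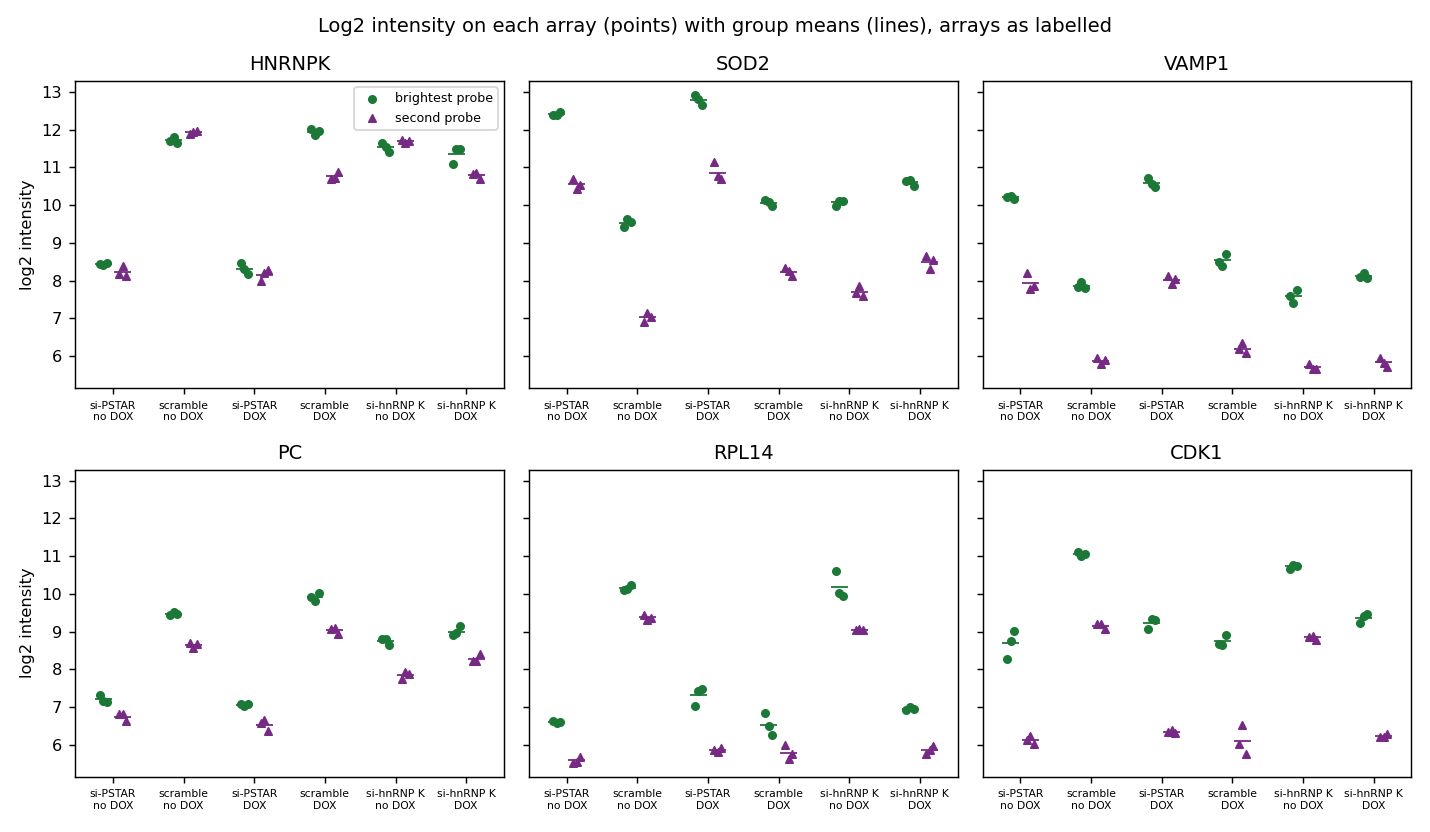
Log2 intensity on each of the 18 arrays for the brightest probe (circles) and the second probe (triangles) of 6 genes, with group means as lines, from left to right si-PSTAR, scramble, si-PSTAR with DOX, scramble with DOX, si-hnRNP K and si-hnRNP K with DOX. HNRNPK and PC are low, and SOD2 and VAMP1 high, in both groups labelled si-PSTAR, whereas RPL14 and CDK1 are high in the scramble and si-hnRNP K arrays without DOX and low in the other 12 arrays.

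The contrast of the same siRNA labels with DOX gave a second measurement on other arrays that all lie in 1 set. Of the 823 genes higher without DOX, 255 were also higher with DOX, which is 31.0% of the 823 and 61.3% of the 416 higher with DOX, where the share of all tested genes was 12.6%. Another 17 were lower. Of the 389 lower genes, 134 were also lower with DOX, which is 34.4% of the 389 and 32.4% of the 413 lower with DOX, against 12.5% of all tested genes, and 14 were higher. Of the 55 genes at least 2-fold higher, 45 were also higher with DOX, their median of the smaller of both probe changes being 1.16 without and 0.65 with DOX. Of the 110 genes at least 2-fold lower, 27 were also lower with DOX and 7 were higher, and the median was -1.40 without DOX and 0.00010 with it. Each of these medians comes from genes chosen by their change without DOX. The difference between the conditions, tested as an interaction, was called on both probes for 802 genes (24.2%), with 215 higher (6.49%) and 587 lower (17.7%) with DOX. After cyclic loess 312 were higher and 119 lower.

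The arrays labelled si-hnRNP K, with DOX against without it, cross the 2 array sets and share no array with the comparison either. This contrast changed 862 genes (26%), 665 higher (20.1%) and 197 lower (5.94%). Of the 823 higher genes, 352 were higher there too, which is 42.8% of the 823 and 52.9% of the 665. Of the 389 lower genes, 159 were lower there, which is 40.9% of the 389 and 80.7% of the 197, and 46 were higher. Among the 110 genes at least 2-fold lower, 79 fell there as well, with a median of -0.91, and 9 rose. Of the 823 higher genes, 89 were higher in both of these other contrasts, 166 in the siRNA contrast with DOX alone and 263 in the si-hnRNP K contrast alone. Of the 389 lower genes, 6 were lower in both, 128 in the siRNA contrast with DOX alone and 153 in the si-hnRNP K contrast alone. The response to DOX and the array set cannot be told apart in the arrays labelled si-hnRNP K.

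**Figure D4:**
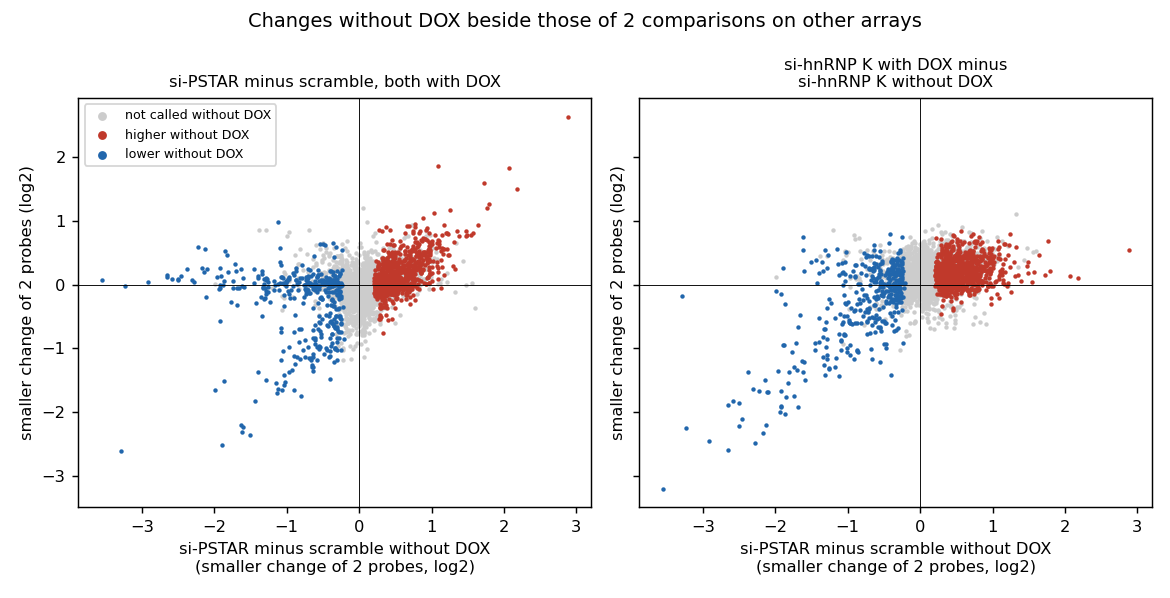
The smaller of both probe changes for 3314 genes without DOX (x axis, arrays labelled si-PSTAR minus scramble) against the same value in 2 contrasts on other arrays (y axes, log2): si-PSTAR minus scramble with DOX on the left, and si-hnRNP K with DOX minus si-hnRNP K without DOX on the right. On the left the lower genes (blue) form 1 arm near 0 on the y axis and another that falls with the x axis, and on the right most of the largest falls lie below 0.

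Genes that fell on both sets of arrays were led, after HNRNPK, by PC and IL10RB. PC, pyruvate carboxylase, which replenishes oxaloacetate and starts gluconeogenesis, read 7.31, 7.15 and 7.12 in the arrays labelled si-PSTAR, against 9.43, 9.51 and 9.48 in the scramble arrays. Its second probe read 6.80, 6.81 and 6.61 in the arrays labelled si-PSTAR, against 8.70, 8.57 and 8.67 in the scramble arrays. The groups did not overlap, and PC fell by 2.28 and 1.90 without DOX and by 2.85 and 2.50 with DOX. The third probe of PC went the other way, at 7.31, 7.25 and 7.45 in the arrays labelled si-PSTAR, against 6.53, 6.73 and 6.33 in the scramble arrays. IL10RB, a subunit shared by the receptors of interleukin 10 and related cytokines, read 6.77, 7.003 and 6.93 in the arrays labelled si-PSTAR, against 9.23, 9.27 and 9.35 in the scramble arrays, and fell by 2.38 and 1.99. With DOX the IL10RB probes fell by 2.11 and 1.65. MYL5, a myosin light chain, fell by 1.62 and 1.80 without DOX and by 2.19 and 2.33 with DOX, and LIAT1, a ligand of an arginyltransferase, by 1.90 and 1.62 and by 2.59 and 2.31.

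Promoter sequences are shown for SOD2, the leading rise in both conditions, and for HNRNPK, PC and IL10RB, the leading falls. They are given because hnRNP K is known to bind C-rich single strands, among them the CT element of the MYC promoter. The letters CCCTCCCC, the core of that element, were searched on both strands in RefSeq promoters (GRCh38.p14), running between 250 bases before and 50 after the gene's start, and are printed in capitals. The run CCCCCC was counted as well; a C run may overlap the core. The minus-strand windows are chr6:159727335-159727634 for SOD2, chr9:83980566-83980865 for HNRNPK and chr11:66958334-66958633 for PC, and the plus-strand window is chr21:33266117-33266416 for IL10RB.
SOD2: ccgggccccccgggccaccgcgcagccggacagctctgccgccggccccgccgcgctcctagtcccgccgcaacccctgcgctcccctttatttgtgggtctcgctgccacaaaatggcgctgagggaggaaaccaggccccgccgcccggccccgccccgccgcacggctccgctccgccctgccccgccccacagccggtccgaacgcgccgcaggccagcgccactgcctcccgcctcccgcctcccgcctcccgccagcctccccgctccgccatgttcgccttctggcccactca
HNRNPK: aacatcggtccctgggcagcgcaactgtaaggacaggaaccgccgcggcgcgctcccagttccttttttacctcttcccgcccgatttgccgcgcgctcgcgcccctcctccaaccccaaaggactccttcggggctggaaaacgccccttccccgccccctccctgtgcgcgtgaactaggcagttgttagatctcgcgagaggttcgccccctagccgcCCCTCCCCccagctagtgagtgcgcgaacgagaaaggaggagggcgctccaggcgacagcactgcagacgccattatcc
PC: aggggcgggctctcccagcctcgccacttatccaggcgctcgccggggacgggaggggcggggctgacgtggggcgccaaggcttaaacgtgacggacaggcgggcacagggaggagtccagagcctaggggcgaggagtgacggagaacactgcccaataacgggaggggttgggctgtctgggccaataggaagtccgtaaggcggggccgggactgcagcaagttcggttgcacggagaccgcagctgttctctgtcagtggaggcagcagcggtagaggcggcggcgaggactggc
IL10RB: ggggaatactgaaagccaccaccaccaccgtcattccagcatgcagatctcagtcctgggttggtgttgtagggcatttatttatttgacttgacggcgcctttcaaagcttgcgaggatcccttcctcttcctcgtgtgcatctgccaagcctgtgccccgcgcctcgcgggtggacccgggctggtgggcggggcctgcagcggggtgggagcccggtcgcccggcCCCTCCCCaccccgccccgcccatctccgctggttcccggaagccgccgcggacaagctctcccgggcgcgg
The core was present in HNRNPK and IL10RB and not in these windows of SOD2 and PC. The window of VAMP1, searched as well and not shown, held neither the core nor the C run. It was found in 17.8% of the promoters of genes higher both without and with DOX (38 of 214 with a promoter in the table) and in 17.4% of those lower in both (20 of 115), against 16.0% of tested genes (439 of 2738) and 12.8% of all 27305 promoters. Among all genes higher without DOX it was found in 15.3% (105 of 687), and among all those lower without DOX in 15.5% (51 of 330), both below the share of tested genes. The C run was found in 22.0% of the genes higher in both conditions and 18.3% of those lower in both, against 21.9% of tested genes. A match describes the letters only.

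Genes of the p53 response come next, since hnRNP K is a known p53 cofactor. CDKN1A, the p53-induced inhibitor of cyclin-dependent kinases, had probes that disagreed. The brightest probe averaged 11.04 ± 0.20 in the arrays labelled si-PSTAR and 12.67 ± 0.14 in the scramble arrays (SD, n = 3 each), a change of -1.62, and the second averaged 6.63 ± 0.01 in the arrays labelled si-PSTAR and 6.06 ± 0.05 in the scramble arrays, a change of 0.57. With DOX both fell, by 2.50 and 0.47. For MDM2, the ligase that degrades p53, 1 probe passed the filter, so it was not tested by the 2-probe rule. Of 7 tested p53 targets of arrest, repair and feedback, none rose and 3 fell, also after cyclic loess. GADD45A, a stress sensor of growth arrest, fell by 0.63 and 0.89, RRM2B, a ribonucleotide reductase subunit, by 0.55 and 2.07, and POLH, a translesion polymerase, by 0.80 and 0.41. GADD45A alone of these fell on both probes with DOX as well, by 1.47 and 1.30. Of 10 tested p53 targets of cell death, none rose and 2 fell (3 after cyclic loess): PMAIP1, which encodes the BH3-only protein NOXA, by 2.18 and 0.62, and TNFRSF10B, a TRAIL receptor, by 0.55 and 0.85. The called shares of these 2 lists were 42.9% and 20%, against 36.6% of all tested genes, of which 24.8% rose and 11.7% fell. In 3 of the 7, CDKN1A, PRDM1 and ZMAT3, the 2 probes were called in opposite directions. The same held for 2 of the 10, BID and TP53I3, beside 16.5% of all tested genes. With DOX TNFRSF10B fell by 0.73 and 0.49, while POLH, PMAIP1 and RRM2B differed by -0.006, -0.01 and -0.06 as the smaller change. In the si-hnRNP K contrast, which crosses the array sets, POLH and PMAIP1 changed by -0.26 and -0.58 as the smaller change. GADD45A, RRM2B and TNFRSF10B were not called there.

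Of 21 tested antioxidant enzymes, NRF2 targets and metallothioneins, 13 rose and none fell, where 24.8% of all tested genes rose and 11.7% fell, with a median of the smaller change of 0.50, against 0.11 over all tested genes. After cyclic loess 10 rose and 2 fell, with a median of 0.36 against 0.02 over all tested genes, of which 12.6% rose and 19.5% fell. Beside SOD2 and MT1E these were MAFG, a partner of NRF2 on DNA, which rose by 1.48 and 1.10, and GCLM, a subunit of the enzyme that limits glutathione synthesis, which rose by 1.52 and 1.09. KEAP1, which targets NRF2 for degradation, rose by 1.01 and 1.0, TXNRD1, thioredoxin reductase, by 1.10 and 0.91, and FTL, ferritin light chain, by 0.93 and 1.09. GPX4, which reduces lipid peroxides, rose by 0.67 and 0.61. In 3 of the 21, CAT, NQO1 and SLC30A1, the 2 probes were called in opposite directions, beside 16.5% of all tested genes. The 2 genes that fell after cyclic loess were GPX8 and GSTM1. With DOX 5 of the 13 rose again, among them FTL and TXNRD1, and 6 of the 13 were higher in the si-hnRNP K contrast. Of all 823 higher genes 31.0% rose again with DOX and 42.8% were higher in the si-hnRNP K contrast, which are similar shares.

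**Figure D5:**
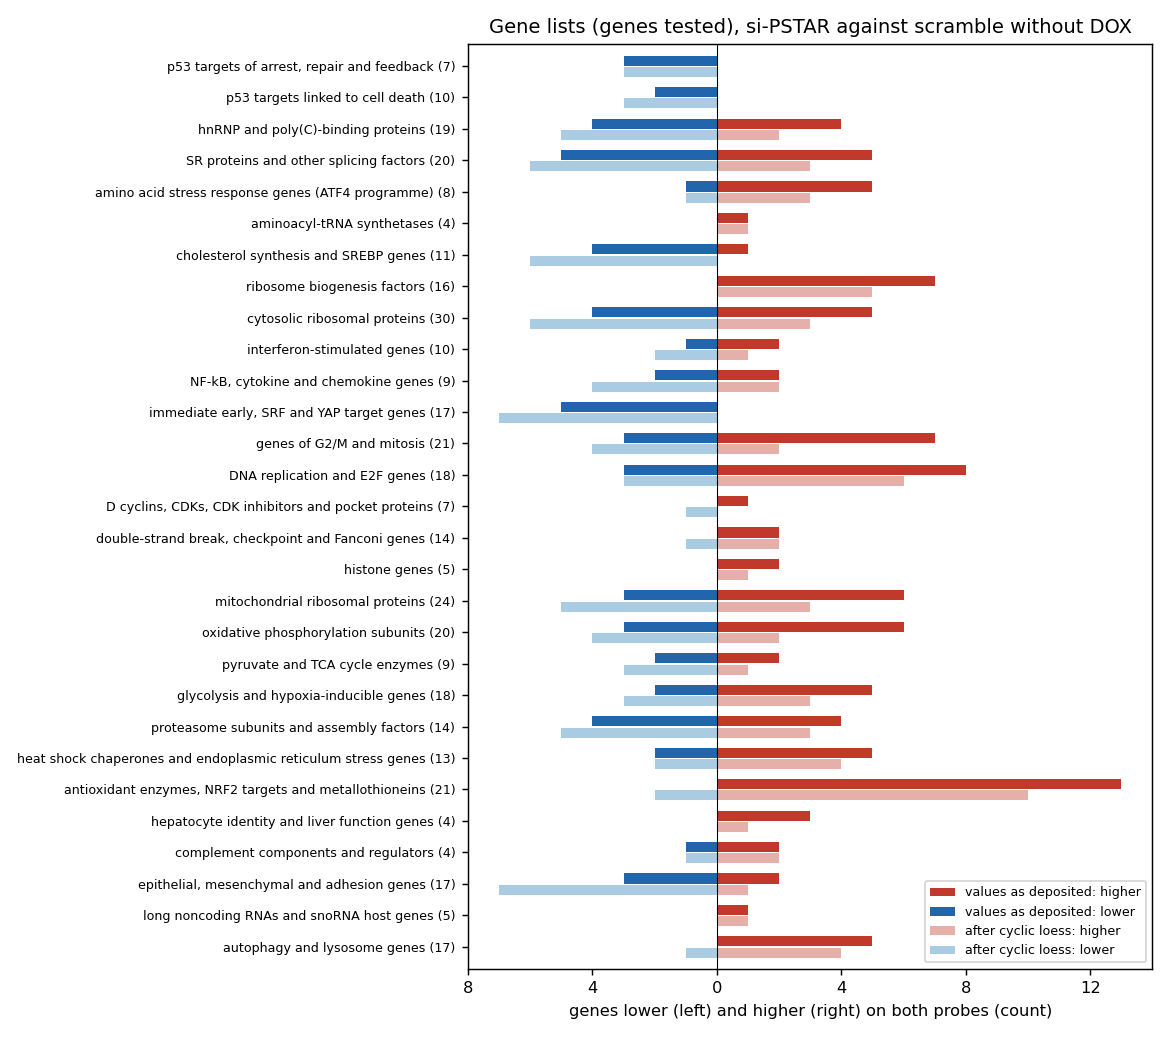
Number of genes lower (blue, to the left) and higher (red, to the right) on both probes in the arrays labelled si-PSTAR against scramble without DOX, for 29 gene lists with the number of tested genes in brackets, in the deposited values (dark) and after cyclic loess (pale). The antioxidant list has 13 higher and 0 lower genes in the deposited values and 10 and 2 after cyclic loess, while the list of immediate early, SRF and YAP targets has 0 higher in both.

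Most of the amino acid stress genes called without DOX rose, while the first 2 probes of their regulator fell. ATF4, the transcription factor of that response, averaged 11.46 ± 0.07 in the arrays labelled si-PSTAR and 12.58 ± 0.05 in the scramble arrays (SD, n = 3 each), and fell by 1.13 and 1.69, while the third probe rose by 0.86. With DOX ATF4 rose by 1.43 and 0.98. In the si-hnRNP K contrast, which crosses the array sets, ATF4 changed by -1.44 as the smaller change. Of the 8 tested genes of the list 5 rose and ATF4 alone fell, and after cyclic loess 3 rose and 1 fell. Of all tested genes 24.8% rose and 11.7% fell, and after cyclic loess 12.6% rose and 19.5% fell. NUPR1, a stress-induced chromatin protein, rose by 1.30 and 1.06, SLC3A2, the heavy chain of amino acid transporters, by 0.96 and 2.00, and PCK2, mitochondrial PEP carboxykinase, by 0.89 and 0.67. ASNS, asparagine synthetase, and PYCR1, of proline synthesis, were higher in the deposited values and not called after cyclic loess. NUPR1, SLC3A2, ASNS and PYCR1 rose with DOX too. Among 13 heat shock and endoplasmic reticulum stress genes 5 rose and 2 fell, and after cyclic loess 4 rose and 2 fell, where 24.8% of all tested genes rose in the deposited values. All 5 rose again with DOX, beside 31.0% of the 823 genes higher without DOX and 12.6% of all tested genes. HSPA8, the constitutive cytosolic HSP70 chaperone, rose by 0.72 and 0.61, beside 0.61 and 0.68 with DOX, and the others were DNAJB6, DNAJB2, XBP1 and HYOU1, the last not called after cyclic loess. DNAJB4, a co-chaperone, fell by 1.62 and 1.26 and differed by -0.04 with DOX as the smaller change. HSPE1, the mitochondrial co-chaperonin, fell by 0.36 and 4.45 and was not called with DOX, at 0.07 as the smaller change.

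Of 18 tested genes of DNA replication, 8 rose and 3 fell, where 24.8% of all tested genes rose and 11.7% fell. The called share of the replication genes was 61.1%, against 36.6% of all tested genes. In 4 of the 18, PCNA among them, the 2 probes were called in opposite directions, beside 16.5% of all tested genes. After cyclic loess 6 rose and 3 fell, where 417 of all tested genes rose and 646 fell. MCM4, a subunit of the replicative helicase, rose by 1.05 and 0.80, UHRF1, which guides maintenance methylation of DNA, by 0.77 and 0.87, PRIM1, a primase subunit, by 0.72 and 0.97, and POLD2, a polymerase delta subunit, by 0.88 and 0.70. These 4, with MCM3 and RFC4, rose with DOX too, RFC4 being called only in the deposited values. The helicase gene MCM8, the polymerase gene POLA1 and the origin gene ORC6 fell, by 0.43 to 0.62 over both probes. Mitotic genes gave no single direction. Of 21 tested, 7 rose and 3 fell in the deposited values, and 2 rose and 4 fell after cyclic loess. In 8 of the 21 the 2 probes were called in opposite directions, beside 16.5% of all tested genes. The called share of mitotic genes in the deposited values was 47.6%, against 36.6% of all tested genes. BIRC5, which encodes survivin of the chromosomal passenger complex, rose by 1.25 and 1.57 and with DOX by 1.46 and 1.16, and CENPA, the centromeric histone, rose by 0.98 and 1.23. DLGAP5, a spindle protein, fell by 1.27 and 0.97 without DOX and, as the smaller change, by 0.97 with DOX.

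Targets of SRF and YAP, which link the cytoskeleton to transcription, were tested with immediate early genes. Of these 17 genes none rose and 5 fell, where 24.8% of all tested genes rose and 11.7% fell, and the median of the smaller change was 0.03, against 0.11 over all tested genes. After cyclic loess none rose and 7 fell, beside 12.6% and 19.5% of all tested genes. CCN2, a matricellular YAP target, averaged 9.50 ± 0.29 in the arrays labelled si-PSTAR and 11.18 ± 0.24 in the scramble arrays (SD, n = 3 each), and fell by 1.68 and 0.80. VCL, vinculin of cell adhesions, fell by 0.81 and 0.59, and MYL9, a myosin light chain of contractile fibres, by 0.61 and 0.75. ACTG1, cytoplasmic gamma actin, fell by 0.26 and 0.71. With DOX CCN2, VCL, MYL9 and ACTG1 fell again, VCL by 1.45 and 1.19. NR4A2, a nuclear receptor induced early by stimuli, fell by 1.74 and 2.12 and differed by -0.16 and -0.06 with DOX.

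Of 11 tested cholesterol and SREBP genes, 4 fell and 1 rose, where 11.7% of all tested genes fell and 24.8% rose. After cyclic loess 6 fell and none rose, where 19.5% of all tested genes fell and 12.6% rose. SREBF1, which encodes the transcription factor SREBP1, averaged 8.04 ± 0.19 in the arrays labelled si-PSTAR and 9.59 ± 0.03 in the scramble arrays (SD, n = 3 each). It fell by 1.55 and 1.06 without DOX and by 2.12 and 1.65 with DOX. INSIG1, which holds the SREBP escort in the endoplasmic reticulum, fell by 1.72 and 1.42, and ACSS2, an acetyl-CoA synthetase, by 1.12 and 0.90. With DOX INSIG1 fell by 1.09 and 0.29 and ACSS2 by 1.12 and 1.18. The third probe of ACSS2 differed by 0.22 without DOX and was lower by 0.16 with DOX. In mitochondria, ATP5F1D, the delta subunit of ATP synthase, fell by 1.81 and 1.51 and with DOX by 2.35 as the smaller change. Of 20 tested oxidative phosphorylation genes, ATP5F1D among them, 6 were higher and 3 lower in the deposited values, and 2 higher and 4 lower after cyclic loess. Their called share in the deposited values was 45%, against 36.6% of all tested genes. SUCLA2, a subunit of succinyl-CoA ligase, fell by 1.73 and 1.71 without DOX and was higher with DOX, by 0.32 as the smaller change.

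RNA-binding and ribosome genes moved both ways. Over all tested genes 24.8% rose and 11.7% fell, and after cyclic loess 12.6% rose and 19.5% fell. Of 19 tested hnRNP and poly(C)-binding genes 4 rose and 4 fell, and 2 rose and 5 fell after cyclic loess, the falls in the deposited values being HNRNPK, HNRNPH3, HNRNPA2B1 and PTBP2. HNRNPA2B1, which sorts and stabilises transcripts, averaged 10.70 ± 0.12 in the arrays labelled si-PSTAR and 13.30 ± 0.12 in the scramble arrays (SD, n = 3 each). It fell by 2.60 and 2.13, while the third probe rose by 0.70, and with DOX its first 2 probes rose by 0.56 and 0.72. PTBP2, a repressor of neuronal exons, fell by 1.35 and 2.94. The genes RALY, HNRNPR, HNRNPAB and HNRNPM rose, the last 2 not after cyclic loess. Of 20 splicing factors 5 rose and 5 fell, and 3 rose and 6 fell after cyclic loess, among the falls LUC7L3, a component of the U1 particle, by 1.34 and 3.79. Ribosome biogenesis factors had 7 of 16 higher and none lower, and 5 and none after cyclic loess. In 4 of the 16 the probes were called in opposite directions, beside 16.5% of all tested genes. The same held for 6 of the 19 hnRNP and poly(C)-binding genes and 5 of the 20 splicing factors. NOC4L, a factor of small subunit maturation, rose by 1.13 and 0.67, and GAR1, a protein of H/ACA pseudouridylation particles, rose on 3 probes by 0.63, 0.84 and 0.93. Cytosolic ribosomal proteins had 5 of 30 higher and 4 lower (3 and 6 after cyclic loess), which is below the 36.6% of all tested genes, and RPS3A fell on its first 3 probes by 1.63, 2.40 and 2.83. With DOX PTBP2, LUC7L3 and RPS3A were not called, at 0.16, 0.21 and 0.24 as the smaller change. In the si-hnRNP K contrast, which crosses the array sets, these genes changed by -0.83, -1.14 and -1.20.

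Inflammatory and secreted proteins were few. Of 9 tested NF-kB, cytokine and chemokine genes 2 rose and 2 fell, and each did so with DOX as well. After cyclic loess 2 rose and 4 fell, the called share in the deposited values being 44.4%, against 36.6% of all tested genes. Beside SOD2, NFKBIB, an inhibitor of NF-kB, rose, by 1.55 and 1.21. NFKB2, which encodes a subunit, fell by 0.43 and 0.80, and CCL5, a T cell chemokine, fell by 0.69 and 0.35, a call that was lost without the third array labelled si-PSTAR, where the smaller change was -0.27. Of 10 interferon-stimulated genes 2 rose and 1 fell, and 1 rose and 2 fell after cyclic loess. The called share of interferon-stimulated genes in the deposited values was 30%, against 36.6% of all tested genes. IRF7, their transcription factor, rose by 1.17 and 0.73 and IFIT3, an antiviral protein, fell by 0.61 and 0.69. SAA1, an acute phase protein, averaged 7.48 ± 0.09 in the arrays labelled si-PSTAR and 5.91 ± 0.12 in the scramble arrays (SD, n = 3 each), and rose by 1.57 and 0.88. C1R, a protease that starts the classical complement pathway, rose by 1.47 and 0.85. C4BPB, which regulates complement, fell by 0.89 and 1.07. With DOX SAA1 and C1R rose and C4BPB fell as well. Of the 4 hepatocyte genes that passed the filter ASL, argininosuccinate lyase of the urea cycle, rose by 0.60 and 0.48. F7 and FGA, both of blood clotting, were higher in the deposited values and were not called after cyclic loess.

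Other groups had members worth their values. Of 17 autophagy and lysosome genes 5 rose and none fell, and 4 rose and 1 fell after cyclic loess; the called share, 29.4%, is below the 36.6% of all tested genes. The lysosomal protease CTSL rose on 3 probes, by 0.84, 0.90 and 1.70. CTSB, another such protease, rose by 0.76 and 1.08, and ATG9A and ATG12, both of autophagosome formation, rose by 0.98 and 0.65 and by 0.90 and 0.62. Of 17 epithelial, mesenchymal and adhesion genes 2 rose and 3 fell in the deposited values, and 1 rose and 7 fell after cyclic loess. Their called share in the deposited values, 29.4%, is below the 36.6% too. Of all tested genes 24.8% rose and 11.7% fell, and after cyclic loess 12.6% rose and 19.5% fell. LAMB1, a laminin chain, fell by 1.30 and 2.29, ITGB4, an integrin of hemidesmosomes, by 1.01 and 0.66, and TGFBR2, a receptor of TGF-beta, by 1.11 and 0.44. With DOX ITGB4 and TGFBR2 fell as well, by 1.18 and 0.63 as the smaller change. LAMB1, at -0.21, was not called with DOX. In the si-hnRNP K contrast LAMB1 changed by -0.59 as the smaller change, and ITGB4 and TGFBR2 were not called. PLAUR, the urokinase receptor, rose on 3 probes by 0.83, 0.99 and 0.93. Of 14 proteasome genes 4 rose and 4 fell (3 and 5 after cyclic loess), and PSMG1, an assembly chaperone, fell by 1.10 and 2.77. With DOX PSMG1 was not called, at 0.35 as the smaller change, and in the si-hnRNP K contrast it changed by -0.87. The called share of the proteasome genes in the deposited values was 57.1%, against 36.6% of all tested genes. RAD17, a checkpoint clamp loader, rose by 1.20 and 1.18, beside 0.14 with DOX as the smaller change. RAD17 and EXO1 were the only called genes among the 14 tested in the DNA repair list.

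Genes with at least 3 probes above the filter allowed a stricter reading, with 102 genes higher and 31 lower on every such probe of the 780 tested. NEMP1, a nuclear envelope protein, rose on 3 probes by 1.41, 1.24 and 1.19, FGL1, a fibrinogen-like secreted protein, by 0.99, 0.98 and 1.26, and JADE1, a subunit of histone acetyltransferases, by 1.001, 1.15 and 0.88. HIF1A, the oxygen-regulated transcription factor, read 7.06, 7.28 and 7.45 in the arrays labelled si-PSTAR, against 9.26, 9.25 and 8.98 in the scramble arrays on its brightest probe. On its second probe HIF1A read 5.67, 5.72 and 5.61 in the arrays labelled si-PSTAR, against 9.69, 9.56 and 9.75 in the scramble arrays. HIF1A fell on 3 probes by 1.90, 4.002 and 1.88, and with DOX these probes differed by 0.18, 0.14 and 0.29. In the arrays labelled si-PSTAR the second HIF1A probe lay near the filter value of 5.72. A fall with DOX could hardly be read on a probe that dim in both groups. PNPT1, the mitochondrial polynucleotide phosphorylase, fell by 1.29, 1.35 and 1.08. With DOX the first 2 PNPT1 probes were lower by only 0.21 and 0.14. P4HTM, a transmembrane prolyl hydroxylase, read 7.85, 8.01 and 8.12 in the arrays labelled si-PSTAR, against 9.52, 9.40 and 9.35 in the scramble arrays, and fell on 3 probes by 1.43, 1.70 and 1.31. With DOX P4HTM fell by 2.16, 1.82 and 1.37. CSF2RA, a receptor subunit for the cytokine GM-CSF, fell by 2.09, 0.83 and 1.52 and with DOX by 1.24, 0.70 and 2.24.

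The 548 genes whose probes went opposite ways included well-known regulators. MYC, the growth-promoting transcription factor, averaged 12.60 ± 0.16 in the arrays labelled si-PSTAR and 11.80 ± 0.08 in the scramble arrays on its brightest probe (SD, n = 3 each), a change of 0.79. Its second probe averaged 6.93 ± 0.12 in the arrays labelled si-PSTAR and 10.62 ± 0.15 in the scramble arrays, a change of -3.69. With DOX the second MYC probe averaged 7.11 in the arrays labelled si-PSTAR and 6.03 in the scramble arrays, and both probes were higher. IL1RAP, a subunit of the interleukin 1 receptor, changed by 2.03 and -1.99, HNRNPDL, an hnRNP D paralog, by 1.60 and -3.35, and FABP5, a fatty acid binding protein, by 1.56 and -1.68. OSBPL8, a lipid transfer protein, changed by 1.43 and -3.25, and NIN, which encodes the centrosomal protein ninein, by -1.61 and 1.47. With DOX the lower-going probes of IL1RAP, HNRNPDL, FABP5, OSBPL8 and NIN differed by 0.02, -0.36, 0.02, 0.37 and -0.01. In the si-hnRNP K contrast these probes of IL1RAP, HNRNPDL, FABP5, OSBPL8 and NIN changed by -2.61, -2.04, -1.93, -2.98 and -1.02. No direction is given for these genes.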

How the data were processed

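The authors deposited 1 table of log2 intensities from 18 Illumina bead arrays, 3 in each of 6 groups. Its columns share 1 distribution (median 5.73, with 100.0% of ranked values equal within 0.01), as quantile normalization gives; neither the labels nor the file name the background correction or the software. Probe names came from the platform annotation: 29511 of 43961 probes had 1 gene symbol and 14450 had none. Probes whose mean over 18 arrays was at least the median (21981) were fitted with limma 3.58.1 in R 4.3.3 as 6 group means, and p-values were adjusted by Benjamini-Hochberg over all of them. A gene was called when its 2 brightest probes both had an adjusted p under 0.05 and 1 sign. The number of arrays limits the precision. An exact permutation test of 3 arrays against 3 cannot go below p = 0.1. Simulated data were used to test the steps. The named genes were the 15 largest rises and 15 largest falls by the smaller probe change, up to 4 called members of each of 29 lists, up to 5 each way called on every probe, up to 5 each way called without and with DOX, 5 with opposite probes, and HNRNPK, CDKN1A, MDM2 and MYC; further list members are given to complete a list and were chosen after their values were seen. The members, lists and tests were chosen with earlier results of these data known. The si-hnRNP K contrast and the list counts after cyclic loess were added after seeing the data. Alternatives were cyclic loess, centring, other filters, other probe rules, other variance priors, array weights, a replicate block and leaving out each array.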

Additional observations from a re-analysis of the deposited data

Results flagged for a closer look

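The difference between the arrays labelled si-PSTAR and the scramble arrays was itself tested between the conditions, as the difference with DOX minus the difference without DOX (limma, adjusted p under 0.05 on both probes). It was higher with DOX for 215 of 3314 genes (6.49%) and lower for 587 (17.7%). After cyclic loess 312 were higher and 119 lower, so the split of these counts turned with the scaling. Of the 132 named genes 80 differed in this way, 32 with a higher and 48 with a lower difference with DOX, beside 24.2% of all tested genes. Most named genes were chosen for a large change without DOX, which is subtracted in this difference. The count of 80 and the directions below therefore follow in part from the choice of genes. The values below are the smaller of both probe differences on the log2 scale. The array set changes with the condition in the scramble arrays and not in those labelled si-PSTAR, so DOX and array set cannot be told apart here.

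All 32 named genes with a higher difference with DOX had fallen without it. The largest values were those of RPL14 (3.86), MBNL2 (3.16), CMPK1 (3.06), YWHAG (3.02), KPNA2 (2.96), CDK1 (2.87), MTPN (2.87), HNRNPA2B1 (2.85), NMD3 (2.80), ANXA2P1 (2.59) and ATF4 (2.56). They were followed by AK6 (2.53), HAT1 (2.42), EIF1AX (2.42), HNRNPH3 (2.40), CYRIB (2.33), HIF1A (2.08), SUCLA2 (2.03), RPS3A (1.87), NR4A2 (1.58), LUC7L3 (1.57) and PSMG1 (1.45). The smallest in this direction were DNAJB4 (1.32), MBNL1 (1.14), PTBP2 (1.08), PNPT1 (1.07), LAMB1 (0.83), PSMA3 (0.80), INSIG1 (0.63), PMAIP1 (0.60), MRPL47 (0.60) and C4BPB (0.40).

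The 48 differences that were lower with DOX ran between -1.03 and -0.35. They are not of 1 kind. Some belong to genes whose rise was smaller with DOX, such as RAD17, TAGLN2 and MT1E. Others belong to genes whose fall was larger with DOX, such as PC, LIAT1 and SREBF1. The lowest values were those of RAD17 (-1.03), TAGLN2 (-0.98), CDKN1A (-0.88), CCL5 (-0.82), NDUFB6 (-0.82), MT1E (-0.77), MSH5 (-0.76), NEMP1 (-0.74), PFKFB3 (-0.71), NCAPH2 (-0.71), PCK2 (-0.70) and SNHG7 (-0.70). Next came PSMD4 (-0.70), LIAT1 (-0.69), RPS9 (-0.65), GET4 (-0.64), OPN3 (-0.62), PHF19 (-0.62), CENPA (-0.62), PKM (-0.61), GCLM (-0.61), RPL36 (-0.60), VCL (-0.60) and NOC4L (-0.59). Values closer to 0 were found for POFUT2 (-0.58), MRPL21 (-0.58), PC (-0.58), EXO1 (-0.56), SREBF1 (-0.56), WARS1 (-0.54), ATP5F1D (-0.53), PLAUR (-0.53), MYL5 (-0.52), ASL (-0.52), CALML4 (-0.50) and ITGB4 (-0.50). The remaining genes were JADE1 (-0.49), NUPR1 (-0.48), CDKN2B (-0.47), ATG9A (-0.45), ATP5MC2 (-0.44), POLR1D (-0.43), F7 (-0.40), GADD45A (-0.40), MAFG (-0.40), MRPL4 (-0.38), CTSB (-0.38) and CTSL (-0.35). CDKN1A is a gene whose probes moved in opposite directions without DOX, so the sign of its value is that of the difference between the conditions only. With 3 arrays a group, no single array could be tested as standing apart.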

How the results depend on the processing

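Of the 1727 alternative values of the 125 named genes with a call, 1698 kept direction and call and none changed sign; 29 lost the call, in CCL5, CDKN2B, CS, F7, FGA, H2BC12, OAS1 and PKM. The other 7 named genes have no call to keep; of these the smaller probe change of IL1RAP, -1.99, was 1.73 after cyclic loess and 1.93 and 2.04 without the first or the third scramble array, since its 2 opposite changes are nearly equal in size. Cyclic loess gave 417 higher and 646 lower genes without DOX (16 and 153 at least 2-fold), 231 genes lower both without and with DOX, and an interaction on both probes in 431 genes with 119 lower; the cause was not tested. Of the 255 genes higher in both conditions 197 were kept by it, and of the 134 lower in both 132. A filter at the 70th percentile, which tests fewer genes, gave 233 lower genes and 121 higher interactions. Asking for less than both probes gave more calls: on the mean of 2 probes 2542 genes (1444 higher, 1098 lower) without DOX and 1823 (945 and 878) with DOX, and on the brightest probe alone 2425 (1596 and 829) and 1643 (822 and 821). Leaving out 1 array at a time gave 1100 to 1173 genes (732 to 788 higher, 363 to 385 lower), 158 to 176 at least 2-fold, 701 to 729 with DOX (349 to 365 and 348 to 373), 701 to 786 interactions (198 to 217 and 503 to 577), 211 to 278 genes higher and 125 to 140 lower in both conditions, and 121 to 123 named genes, of 125 called. With the replicate number as a block 1213 genes were called (818 higher, 395 lower). Arrays sharing a number did not deviate together (r = -0.11, 0.00096 and 0.060), so the numbers are not taken as pairs. The other alternatives left every count of the 2-probe rule within 1.5 times. Dim probes limit the reading: 3169 genes with at least 2 probes had at least 1 below the filter.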
